A study of Homo sapiens with 12 samples.

Results

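SGK1, ERRFI1, TSC22D3, MAF, ZBTB16, KLF9, CEBPD and PER1 are 8 genes known to answer both to androgens and to the glucocorticoid receptor. They were taken by symbol from a table of 56269 gene symbols, and all 8 were found there and passed the filter on low counts that left 16115 genes for testing. The 12 RNA libraries came from C4-2 cells, an established human prostate cancer line of LNCaP origin that grows without androgen. The groups were Paxillin-targeted siRNA with 2.5 nM dihydrotestosterone (DHT), Non-specific siRNA with 2.5 nM DHT, Paxillin-targeted siRNA with ethanol vehicle, and Non-specific siRNA with ethanol vehicle, with 3 libraries in each. All 4 groups had been transfected for 48 h, kept without serum for 12 h and treated for 24 h. No group received a glucocorticoid, and a single cell line was used, so the data hold the androgen response only. In GENCODE 29 (GRCh38), ZBTB16 lies on the plus strand at chr11:114059593-114250676. On the minus strand lie SGK1 (chr6:134169246-134318112), ERRFI1 (chr1:8004404-8026308), TSC22D3 (chrX:107713221-107777342), MAF (chr16:79585843-79600714), KLF9 (chr9:70384597-70414624) and PER1 (chr17:8140472-8156506).

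Steroid receptors form a family whose members can bind the same inverted-repeat DNA element, so a set of genes can answer to androgens and to glucocorticoids. DHT is the potent androgen made from testosterone in the prostate. In prostate cancer, such shared genes have been studied because the glucocorticoid receptor can take over part of the androgen programme when androgen signalling is blocked. Paxillin (PXN) is a focal adhesion scaffold that also relays signals to and from the nucleus.

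The targeted gene fell under its siRNA: PXN averaged 11.6 ± 2.43 CPM with paxillin siRNA and 127 ± 8.55 CPM with nonspecific siRNA in DHT, and 13.8 ± 2.51 CPM with paxillin siRNA and 146 ± 6.65 CPM with nonspecific siRNA in vehicle (SD, n = 3 each). CPM is the count of a gene relative to the library total, scaled to a common library size after correction by edgeR's TMM method. Library totals ran from 11944906 to 32040465 counts, and replicate 1 of nonspecific siRNA in vehicle was the shallowest. All 10 luminal prostate markers were above 1 CPM on average in every group, with summed levels of 16768 to 18838 CPM in DHT and 8162 to 10611 CPM in vehicle. Of 11 markers of basal, leukocyte, fibroblast and endothelial cells, only COL1A1 and VWF exceeded 1 CPM, and the sum of the 11 lay between 36.6 and 61.5 CPM in all libraries. In such bulk libraries, more cells that express a gene and more RNA per cell cannot be told apart.

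Promoter sequences of 4 of the genes are shown because they stand for the range of responses described after them: SGK1 and MAF had the 2 largest responses, PER1 a moderate one and KLF9 none past the threshold. They are RefSeq windows of 300 bases around an annotated start (build GRCh38.p14), written 5′ to 3′ on the gene's strand, which is the minus strand for all 4. Capitals mark, on either strand, the hexamer AGAACA of the androgen and glucocorticoid response element, the E-box CACGTG, the cAMP element core TGACG, the GC box GGGCGG and the box TATAAA. The last of these was added after the data had been seen.
SGK1, chr6:134177812-134178111: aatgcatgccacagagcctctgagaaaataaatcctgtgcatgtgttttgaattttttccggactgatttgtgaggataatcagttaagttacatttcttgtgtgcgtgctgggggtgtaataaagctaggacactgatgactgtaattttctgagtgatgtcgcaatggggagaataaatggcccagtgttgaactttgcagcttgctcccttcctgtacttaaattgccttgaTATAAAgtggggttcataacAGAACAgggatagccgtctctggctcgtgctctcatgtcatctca
MAF, chr16:79600688-79600987: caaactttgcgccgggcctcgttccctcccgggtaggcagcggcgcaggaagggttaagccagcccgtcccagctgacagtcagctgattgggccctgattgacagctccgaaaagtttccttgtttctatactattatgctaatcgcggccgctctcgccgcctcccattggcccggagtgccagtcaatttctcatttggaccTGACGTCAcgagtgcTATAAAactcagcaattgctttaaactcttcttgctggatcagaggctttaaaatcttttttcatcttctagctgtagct
PER1, chr17:8152355-8152654: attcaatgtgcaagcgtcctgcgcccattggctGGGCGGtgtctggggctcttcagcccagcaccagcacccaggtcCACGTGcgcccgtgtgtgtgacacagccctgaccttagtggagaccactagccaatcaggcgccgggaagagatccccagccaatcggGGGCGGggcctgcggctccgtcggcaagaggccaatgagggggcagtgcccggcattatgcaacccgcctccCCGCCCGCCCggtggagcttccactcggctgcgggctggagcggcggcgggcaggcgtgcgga
KLF9, chr9:70414608-70414907: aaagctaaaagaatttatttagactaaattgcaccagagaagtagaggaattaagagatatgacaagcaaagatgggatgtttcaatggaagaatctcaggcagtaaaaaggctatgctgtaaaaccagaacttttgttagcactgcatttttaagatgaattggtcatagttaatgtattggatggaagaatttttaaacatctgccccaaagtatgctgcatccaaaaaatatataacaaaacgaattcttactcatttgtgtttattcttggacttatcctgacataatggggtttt
Windows were found for 6 of the 8 genes, 11 in all: 4 for TSC22D3, 3 for SGK1 and 1 each for ERRFI1, KLF9, MAF and PER1. The complete 15-base element, AGAACA followed by 3 free bases and TGTTCT, was in 0 of the 11, exactly or with up to 1, 2 or 3 mismatches, and those matches were in 0.00285%, 0.165%, 1.41% and 10.8% of all 35116 RefSeq promoter windows of the same length. AGAACA was in 1 window, the one of SGK1 shown above, and in 14.8% of all windows. That window therefore does not stand for the other SGK1 windows, which lack AGAACA. The one at chr6:134174817-134175116 has 6 GGGCGG matches and 73.3% G or C, against 43.0% in the window shown. CACGTG was in 1 window, that of PER1 at position -173 relative to the start, and in 7.26% of all windows. TATAAA was in 5 of the 11 windows, 3 of SGK1, 1 of MAF and 1 of TSC22D3, and in 11.5% of all windows. TGACG was in 4 windows and GGGCGG in 6, against 24.6% and 45.0% of all windows, and the 2 TGACG matches of MAF overlap on opposite strands. The absence of a match says only that these letters are not in these windows, and the gene counts do not show which start was used.

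DHT raised 6 of the 8 genes under each siRNA, namely SGK1, MAF, ERRFI1, ZBTB16, PER1 and CEBPD. Here a call means an adjusted p (Benjamini-Hochberg, over all 16115 genes) under 0.05 in edgeR's quasi-likelihood test, the test behind every adjusted p given below unless another is named. Of all genes tested, 20.1% were called higher in DHT with paxillin siRNA and 21.6% with nonspecific siRNA. None of the 8 was called lower in DHT in this test, against 17.9% of all genes with paxillin siRNA and 18.9% with nonspecific siRNA. The median log2 fold change of the 8 genes was 1.59 with paxillin siRNA and 1.62 with nonspecific siRNA, against a median of -0.01 over all genes tested in each case. In each of these 6 genes the DHT libraries lay wholly above the vehicle libraries, which held for 25.3% of all genes with paxillin siRNA and 26.3% with nonspecific siRNA. The share lying wholly below was 23.3% with paxillin siRNA, with 0 of the 8 genes in it, and 24.0% with nonspecific siRNA, with KLF9 as 1 of 8. The rises were called for 3234 genes and the falls for 2886 with paxillin siRNA (2262 and 3935 with upper-quartile scaling), and for 3481 and 3053 genes with nonspecific siRNA (2707 and 3896 with upper-quartile scaling). With the replicate number added to the fit as a block, 7 of the 8 were called higher under each siRNA, TSC22D3 in addition. Over all genes that fit called 3698 higher with paxillin siRNA and 3967 with nonspecific siRNA.

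**Figure D1:**
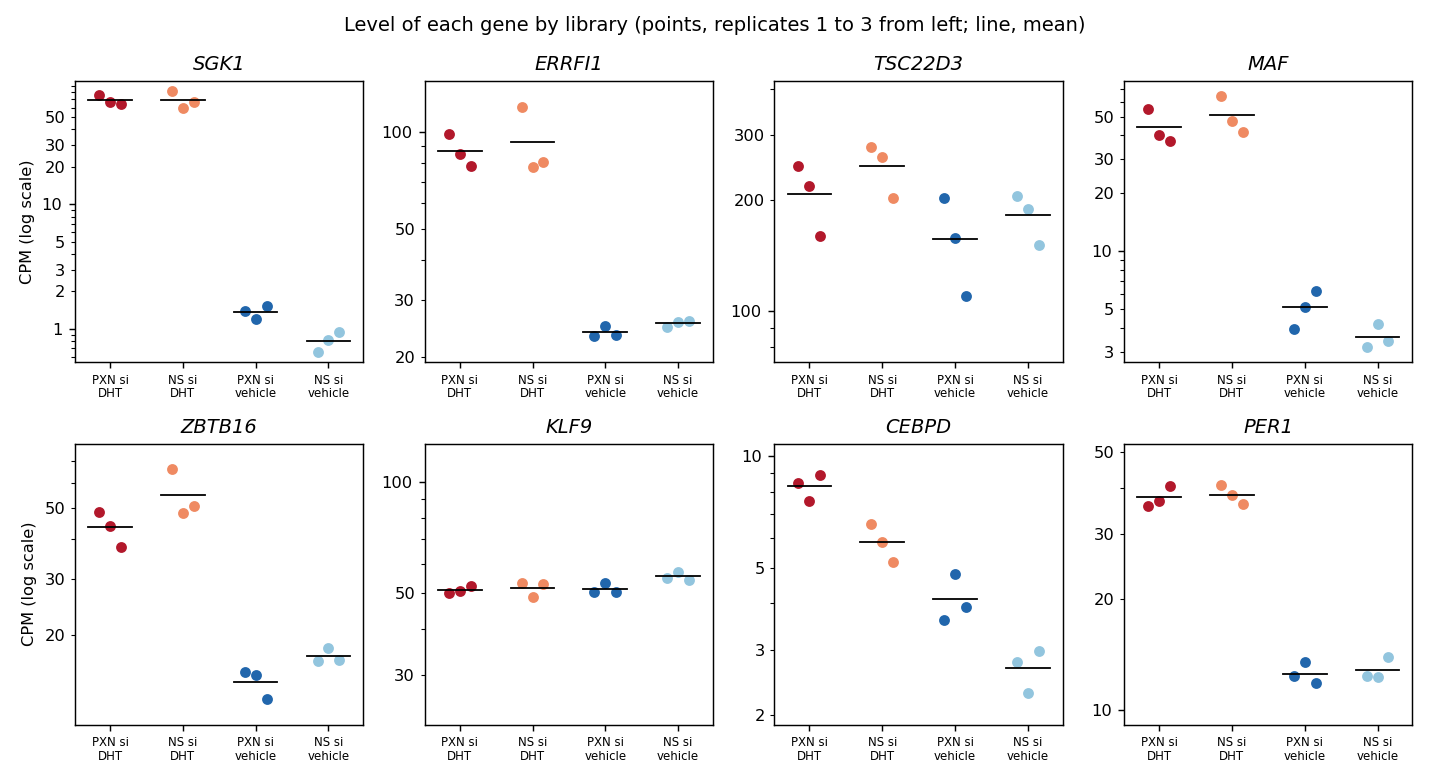
Level of each of the 8 genes in every library, in CPM on a log scale, with groups from left to right paxillin siRNA in DHT, nonspecific siRNA in DHT, paxillin siRNA in vehicle and nonspecific siRNA in vehicle. Points are libraries and lines are means of 3. SGK1 lies at 59.0 to 81.7 CPM in DHT and 0.652 to 1.52 CPM in vehicle, while KLF9 stays between 48.9 and 57.2 CPM throughout.

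The kinase SGK1 and the kinase inhibitor ERRFI1 are signalling members of the set. SGK1 encodes the serum- and glucocorticoid-regulated kinase, a relative of AKT that phosphorylates substrates such as NDRG1 and the ubiquitin ligase NEDD4L and so raises sodium channel activity in epithelia. It had 75.6, 66.3 and 64.2 CPM in DHT and 1.38, 1.204 and 1.52 CPM in vehicle with paxillin siRNA (replicates 1, 2 and 3). The nonspecific siRNA libraries had 81.7, 59.0 and 66.5 CPM in DHT and 0.652, 0.814 and 0.940 CPM in vehicle. Every DHT library was far above every vehicle library, and the vehicle libraries of nonspecific siRNA held only 8, 21 and 25 counts. The log2 fold change was 5.64 ± 0.14 (SE, 50.01-fold, adjusted p = 3.67e-15) with paxillin siRNA and 6.36 ± 0.17 (82.4-fold, adjusted p = 4.86e-15) with nonspecific siRNA. These placed SGK1 at rank 27 and rank 22 from the highest of the 16115 log2 fold changes.

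ERRFI1 encodes MIG6, a feedback inhibitor that binds and blocks the kinase domains of the epidermal growth factor receptor family. It had 98.5, 85.2 and 78.0 CPM in DHT and 23.1, 25.0 and 23.3 CPM in vehicle with paxillin siRNA. With nonspecific siRNA the levels were 120, 77.7 and 80.5 CPM in DHT and 24.7, 25.6 and 25.8 CPM in vehicle. The vehicle libraries were close together and the DHT libraries all higher, with replicate 1 the highest of the 3 in DHT under each siRNA. The log2 fold change was 1.88 ± 0.13 (3.67-fold, adjusted p = 2.02e-09) with paxillin siRNA and 1.86 ± 0.13 (3.64-fold, adjusted p = 3.10e-09) with nonspecific siRNA. An antisense transcript, AL034417.4, shares 155 bases of exon with ERRFI1 in GENCODE 29, and whether the counting used the strand is not given in the sources used here.

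MAF, ZBTB16, KLF9 and CEBPD encode transcription factors. MAF (c-MAF) is a bZIP factor with roles in lens, kidney and T helper cells. It had 55.2, 40.3 and 37.4 CPM in DHT and 3.95, 5.14 and 6.23 CPM in vehicle with paxillin siRNA. With nonspecific siRNA it had 64.0, 47.5 and 41.7 CPM in DHT and 3.18, 4.19 and 3.38 CPM in vehicle. The groups were far apart in each arm, and in DHT replicate 1 was the highest and replicate 3 the lowest of the 3 under each siRNA. The log2 fold change was 3.12 ± 0.19 (8.72-fold, adjusted p = 3.06e-10) with paxillin siRNA and 3.80 ± 0.20 (13.97-fold, adjusted p = 7.66e-11) with nonspecific siRNA.

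ZBTB16 encodes PLZF, a zinc finger repressor that recruits the NCOR and SIN3A corepressors with histone deacetylases. It had 48.7, 44.0 and 37.6 CPM in DHT and 15.3, 15.03 and 12.6 CPM in vehicle with paxillin siRNA. In the nonspecific arm it had 66.2, 48.2 and 50.9 CPM in DHT and 16.6, 18.2 and 16.7 CPM in vehicle. The DHT libraries were all above the vehicle libraries, by a log2 fold change of 1.60 ± 0.12 (3.04-fold, adjusted p = 6.22e-09) with paxillin siRNA and 1.67 ± 0.12 (3.19-fold, adjusted p = 4.24e-09) with nonspecific siRNA.

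CEBPD encodes C/EBPδ, a bZIP factor of acute-phase and inflammatory gene expression, and it was the least abundant of the 8 genes per exon length in DHT. It had 8.46, 7.60 and 8.89 CPM in DHT and 3.62, 4.81 and 3.91 CPM in vehicle with paxillin siRNA. Under nonspecific siRNA it had 6.55, 5.88 and 5.17 CPM in DHT and 2.77, 2.29 and 2.97 CPM in vehicle. The DHT libraries lay above the vehicle libraries in each arm. The log2 fold change was 1.02 ± 0.15 (2.02-fold, adjusted p = 2.55e-05) with paxillin siRNA and 1.14 ± 0.17 (2.20-fold, adjusted p = 2.72e-05) with nonspecific siRNA.

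KLF9, a Krüppel-like factor that answers quickly to glucocorticoids in many tissues, did not pass the threshold in either arm. It had 50.04, 50.6 and 52.4 CPM in DHT and 50.5, 53.4 and 50.2 CPM in vehicle with paxillin siRNA. The nonspecific arm had 53.3, 48.9 and 53.1 CPM in DHT and 55.0, 57.2 and 54.4 CPM in vehicle. The groups overlapped with paxillin siRNA, while with nonspecific siRNA the DHT libraries lay just below the vehicle libraries, without overlap. The log2 difference was -0.01 (95% interval -0.13 to 0.11, adjusted p = 0.912) with paxillin siRNA and -0.10 (95% interval -0.23 to 0.02, adjusted p = 0.191) with nonspecific siRNA. Upper-quartile scaling gave -0.17 and an adjusted p of 0.0294 in the nonspecific arm, in a range of 0.0294 to 0.601 over all alternatives. Both intervals leave out the 2-fold rise that the 6 called genes reached.

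PER1 and TSC22D3 complete the set. PER1 is a repressor of the circadian clock that hormones can induce outside the daily cycle. It had 35.7, 36.8 and 40.5 CPM in DHT and 12.3, 13.5 and 11.8 CPM in vehicle with paxillin siRNA, and 40.6, 38.3 and 36.0 CPM in DHT and 12.4, 12.3 and 13.9 CPM in vehicle with nonspecific siRNA. Groups were far apart and tight, and the log2 fold change was 1.58 ± 0.08 (2.998-fold, adjusted p = 7.93e-11) with paxillin siRNA and 1.57 ± 0.09 (2.97-fold, adjusted p = 1.23e-10) with nonspecific siRNA. The microRNA gene MIR6883 and the gene AC129492.3 share 78 and 30 bases of exon with PER1 on the same strand.

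TSC22D3 encodes GILZ, the glucocorticoid-induced leucine zipper protein, which carries much of the anti-inflammatory action of glucocorticoids. It had 247, 218 and 160 CPM in DHT and 203, 158 and 110 CPM in vehicle with paxillin siRNA. With nonspecific siRNA it had 279, 262 and 203 CPM in DHT and 205, 190 and 151 CPM in vehicle. The groups overlapped, yet replicate 1 was the highest and replicate 3 the lowest in all 4 groups, and DHT exceeded vehicle within every replicate number, in 3 of 3 pairs under each siRNA. In the edgeR fit of all 4 groups, with the filter, TMM scaling and no block, TSC22D3 did not pass, with a log2 difference of 0.41 ± 0.18 (1.33-fold, adjusted p = 0.0861) with paxillin siRNA and 0.45 ± 0.18 (1.37-fold, adjusted p = 0.0567) with nonspecific siRNA. With the replicate block it passed, at 0.42 (adjusted p = 1.52e-05) with paxillin siRNA and 0.45 (adjusted p = 7.91e-06) with nonspecific siRNA. It passed as well without the filter on low counts, at 0.42 with paxillin siRNA (adjusted p = 1.06e-07) and 0.47 with nonspecific siRNA (adjusted p = 1.50e-09), and, with nonspecific siRNA, in a fit of only the groups compared (0.44, adjusted p = 0.00514). Without the filter the log2 differences hardly moved, while the SE was 0.07 in each arm, against 0.18 with it. Over all alternatives the adjusted p of TSC22D3 ran from 1.06e-07 to 0.384 with paxillin siRNA and from 1.50e-09 to 0.215 with nonspecific siRNA. It also passed with paxillin siRNA when replicate 1 of paxillin siRNA in vehicle or replicate 3 of paxillin siRNA in DHT was left out, at 0.63 and 0.56 on the log2 scale. With nonspecific siRNA it passed when any of 6 libraries was left out, namely replicate 1 of nonspecific siRNA in vehicle, replicate 3 of nonspecific siRNA in DHT, and replicates 1 and 3 of paxillin siRNA in vehicle and in DHT. The gene NCBP2L shares 71 bases of exon with TSC22D3 on the opposite strand.

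**Figure D2:**
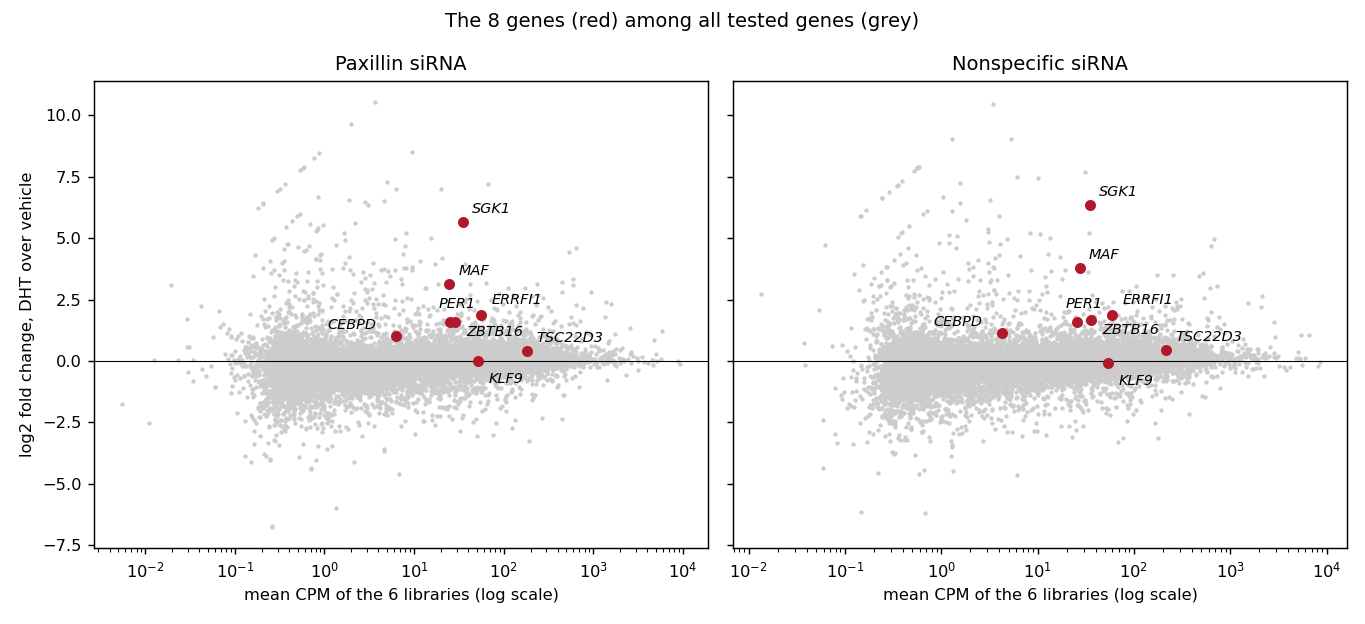
Log2 fold change of DHT over vehicle against mean CPM (log scale) of the 6 libraries of each siRNA, for all 16115 tested genes (grey) and the 8 genes (red), with paxillin siRNA on the left and nonspecific siRNA on the right. SGK1 stands at 5.64 and 6.36, MAF at 3.12 and 3.80, KLF9 close to the line at 0 and TSC22D3 a little above it.

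The responses of SGK1 and MAF were larger on the log2 scale with nonspecific siRNA, but the difference between the arms did not pass. The interaction (the DHT response with paxillin siRNA minus that with nonspecific siRNA) was -0.72 ± 0.29 for SGK1 (adjusted p = 0.480) and -0.68 ± 0.28 for MAF (adjusted p = 0.503). For MAF, testing without the filter on low counts gave -0.68 with an adjusted p of 0.0120, in a range of 0.0120 to 0.740 over its alternatives. The SE there was 0.16, against 0.28 with the filter. The other 6 interactions lay between -0.12 for CEBPD and 0.09 for KLF9. Of all genes, 8 passed in edgeR (0.0496%), 0 of them among the 8 described here, of which SGK1 and MAF had an unadjusted p under 0.05, as did 1435 genes in all. DESeq2 also called 0 of the 8. Over all genes DESeq2 called 54 for the interaction and limma-voom 0, against 97 with the replicate block.

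In the edgeR fit of all 4 groups, with the filter, TMM scaling and no block, CEBPD was the 1 gene of the 8 called under paxillin siRNA, while other settings also called SGK1, MAF, TSC22D3 or ZBTB16, as given with each. CEBPD was higher with paxillin siRNA in all 3 pairs in DHT, at 8.46, 7.60 and 8.89 CPM with paxillin siRNA and 6.55, 5.88 and 5.17 CPM with nonspecific siRNA. It was likewise higher in vehicle, at 3.62, 4.81 and 3.91 CPM with paxillin siRNA and 2.77, 2.29 and 2.97 CPM with nonspecific siRNA. Paxillin siRNA libraries lay wholly above for 16.1% of all genes in DHT, with CEBPD as 1 of 8, and for 18.1% in vehicle, with CEBPD and SGK1 as 2 of 8. For CEBPD the log2 fold change was 0.50 ± 0.14 (1.42-fold, adjusted p = 0.0263) in DHT and 0.62 ± 0.17 (1.54-fold, adjusted p = 0.0144) in vehicle. CEBPD was thereby 1 of 8 genes called higher in DHT, where 6.34% of all genes were, and 1 of 8 in vehicle, where 10.7% were. In DHT its call was lost without replicate 1 or 3 of paxillin siRNA in DHT (adjusted p = 0.0549 and 0.103) or without replicate 2 or 3 of nonspecific siRNA in DHT (0.0785 and 0.112), in a range of 0.0123 to 0.112 over all alternatives. In vehicle it was lost without replicate 2 of paxillin siRNA (0.0737) or replicate 2 of nonspecific siRNA (0.0895), in a range of 0.00671 to 0.0895.

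In that edgeR fit of all 4 groups 0 of the 8 genes were called lower with paxillin siRNA, against 7.00% of all genes in DHT and 9.78% in vehicle. ZBTB16 had an unadjusted p under 0.05 in each, but so did 4491 of all 16115 genes in DHT and 5306 in vehicle, in either direction. How many of all genes were lower in 3 of 3 pairs, as given for 2 genes below, was not counted. Libraries lay wholly below for 16.0% of all genes in DHT, with 0 of the 8 among them, and for 17.7% in vehicle, with ZBTB16 and KLF9 among them. ZBTB16 was lower in 3 of 3 pairs in each treatment, with a log2 difference of -0.34 ± 0.11 (adjusted p = 0.0507) in DHT and -0.27 ± 0.13 (adjusted p = 0.151) in vehicle. With the replicate block it passed, at -0.34 (adjusted p = 0.00299) in DHT and -0.29 (adjusted p = 0.0235) in vehicle, in ranges of 0.0028 to 0.280 and 0.0235 to 0.450 over all alternatives. In DHT it also passed with upper-quartile scaling (adjusted p = 0.0434), with DESeq2 (0.0434), without the filter (0.0028), and without replicate 2 of nonspecific siRNA in DHT, replicate 1 of paxillin siRNA in DHT, or replicate 1 or 3 of paxillin siRNA in vehicle. TSC22D3 too was lower in 3 of 3 pairs in each treatment, at -0.25 ± 0.18 (adjusted p = 0.399) in DHT and -0.21 ± 0.18 (adjusted p = 0.465) in vehicle. Its values with the replicate block were -0.26 (adjusted p = 0.00566) in DHT and -0.24 (adjusted p = 0.00884) in vehicle, past the threshold, in ranges of 0.00566 to 0.819 and 0.00884 to 0.999. Without the filter it passed in DHT too (-0.24, adjusted p = 0.0147). SGK1 in vehicle was 0.71 ± 0.27 higher on the log2 scale (1.64-fold, adjusted p = 0.0707), with 42, 33 and 42 counts in the paxillin siRNA libraries and 8, 21 and 25 counts in the nonspecific siRNA libraries. It passed with the replicate block (0.67, adjusted p = 0.0316), with DESeq2 (0.73, adjusted p = 0.0331), without the filter (0.73, adjusted p = 0.0199), and when replicate 1 or 2 of nonspecific siRNA in DHT was left out, in a range of 0.0199 to 0.275. MAF in vehicle was at 0.48 ± 0.24 (adjusted p = 0.171) and passed without the filter (0.50, adjusted p = 0.00483), in a range of 0.00483 to 0.482. In DHT the SGK1 difference was -0.01, with a 95% interval of -0.21 to 0.20. For ERRFI1, PER1 and KLF9 the differences lay between -0.09 and -0.02 in DHT and between -0.11 and -0.04 in vehicle, none past the threshold.

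**Figure D3:**
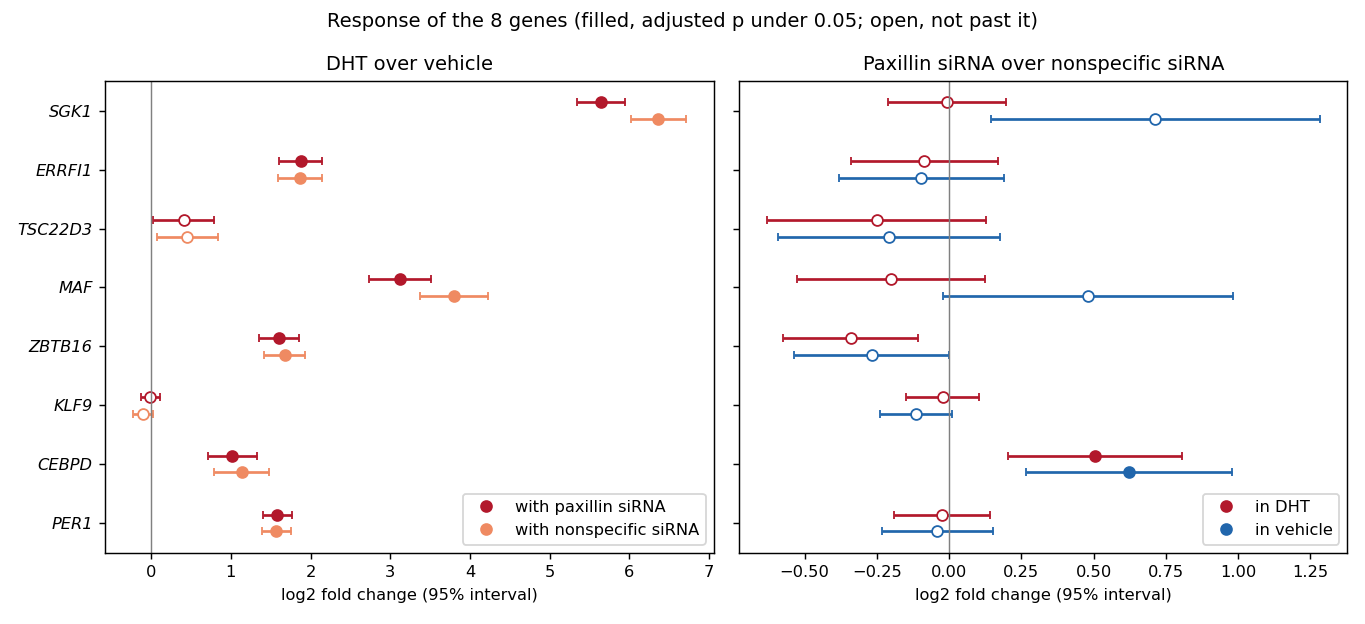
Log2 fold change of each of the 8 genes with its 95% interval, for DHT over vehicle (left) and paxillin over nonspecific siRNA (right), each with its 2 arms. Filled points passed an adjusted p of 0.05 and open ones did not. DHT changes reach 6.36, while siRNA changes lie between -0.34 and 0.71 and only CEBPD is filled there.

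Per exon length, the order of the 8 genes changed with the hormone. Levels are given in CPM per kilobase of annotated exon, averaged over 3 libraries. The length joins the exons of every annotated transcript, so it can exceed that of the RNA present. It was 9992 bases from 30 transcripts for SGK1, while KLF9 and CEBPD have 1 transcript each. The order between genes therefore holds for this measure and may differ from that of RNA molecules. In DHT with paxillin siRNA TSC22D3 was highest at 43.7 ± 9.38, followed by ERRFI1 at 20.8 ± 2.49 and KLF9 at 9.86 ± 0.24. SGK1 (6.87), ZBTB16 (6.82) and MAF (6.35) followed with overlapping ranges, PER1 (5.37) overlapped only MAF, and CEBPD was lowest at 3.82 ± 0.30. In DHT with nonspecific siRNA the first 3 and the last 2 places were the same, and the ranges of KLF9 and ZBTB16 and those of ZBTB16, MAF and SGK1 overlapped. In vehicle TSC22D3 (32.9 with paxillin siRNA and 38.1 with nonspecific siRNA) and KLF9 (9.93 and 10.7) led, and SGK1 was last at 0.14 with paxillin siRNA and 0.08 with nonspecific siRNA. In vehicle with paxillin siRNA the range of CEBPD overlapped those of ZBTB16 and PER1, and no other neighbours overlapped in either vehicle group. TSC22D3 was first and above all other 7 genes in all 4 groups.

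Other steroid receptors that can bind the shared element were measured beside the 8 genes. NR3C1, the glucocorticoid receptor itself, held 18 counts in all 12 libraries together, and was not tested. Those counts were 1, 0 and 0 with paxillin siRNA and 1, 0 and 1 with nonspecific siRNA in DHT, and 1, 3 and 2 with paxillin siRNA and 0, 7 and 2 with nonspecific siRNA in vehicle. NR3C2, the mineralocorticoid receptor, averaged 8.04 ± 1.37 CPM in DHT and 8.42 ± 0.75 CPM in vehicle with paxillin siRNA, and 8.07 ± 1.46 CPM in DHT and 11.8 ± 1.73 CPM in vehicle with nonspecific siRNA (SD, n = 3). It fell in DHT with nonspecific siRNA, by 0.57 on the log2 scale (adjusted p = 0.00670), and was at -0.07 with paxillin siRNA (adjusted p = 0.756), and the interaction of 0.50 did not pass (adjusted p = 0.523). In vehicle NR3C2 was lower with paxillin siRNA than with nonspecific siRNA, at -0.51 on the log2 scale (adjusted p = 0.0238). PGR, the progesterone receptor, fell to 0.227 ± 0.132 CPM in DHT against 4.09 ± 0.69 CPM in vehicle with paxillin siRNA, and to 0.106 ± 0.074 CPM in DHT against 2.51 ± 0.27 CPM in vehicle with nonspecific siRNA (adjusted p = 1.49e-08 and 9.64e-08). Of 19 receptors, chaperones and cofactors listed, 16 were tested, and 5 rose and 7 fell in DHT with paxillin siRNA, and 4 rose and 8 fell with nonspecific siRNA. With paxillin siRNA 3 rose with upper-quartile scaling or at an adjusted p under 0.01. The same number rose without any one of replicate 2 or 3 of paxillin siRNA in vehicle or replicate 2 of paxillin siRNA in DHT. Over all genes, 20.1% were called higher in DHT and 17.9% lower with paxillin siRNA, and 21.6% and 18.9% with nonspecific siRNA.

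**Figure D4:**
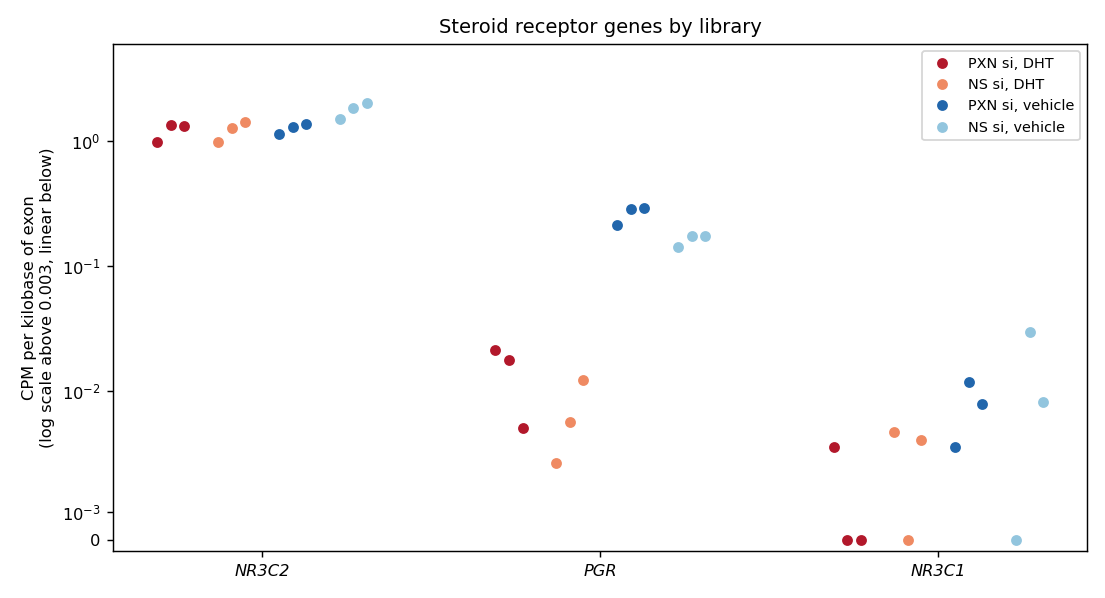
CPM per kilobase of exon of 3 steroid receptor genes in every library, on a scale that is logarithmic above 0.003 and linear below, with groups from left to right paxillin siRNA in DHT, nonspecific siRNA in DHT, paxillin siRNA in vehicle and nonspecific siRNA in vehicle. NR3C2 is highest, PGR lies lower in DHT than in vehicle, and NR3C1 is at or near 0 with 18 counts in all.

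Genes of cortisol synthesis, conversion and transport were mostly too low to test. Of 6 listed, 2 were tested, and HSD11B2, which converts cortisol to inactive cortisone, fell in DHT by 0.87 on the log2 scale with paxillin siRNA (26.9 CPM in DHT and 49.2 CPM in vehicle, adjusted p = 2.10e-06) and by 0.51 with nonspecific siRNA (28.5 CPM in DHT and 40.8 CPM in vehicle, adjusted p = 0.000678). HSD11B1, which does the reverse, had 1 count in DHT and 0 in vehicle with paxillin siRNA, and 3 in DHT and 0 in vehicle with nonspecific siRNA.

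Other genes widely known to be induced by glucocorticoids split. Beside them, 20.1% of all genes were called higher in DHT and 17.9% lower with paxillin siRNA, and 21.6% and 18.9% with nonspecific siRNA. Of 32 such genes listed, 26 were tested. In DHT 12 rose and 4 fell with paxillin siRNA, while 15 rose and 6 fell with nonspecific siRNA. Their median log2 fold change was 0.30 with paxillin siRNA and 0.47 with nonspecific siRNA, against -0.01 for all genes in each case. FKBP5, a cochaperone of steroid receptors, had the largest rise, with 1022 CPM in DHT and 47.7 CPM in vehicle with paxillin siRNA (4.42 ± 0.11, adjusted p = 2.39e-15) and 1225 CPM in DHT and 47.5 CPM in vehicle with nonspecific siRNA (4.69 ± 0.11, adjusted p = 1.59e-15). CRISPLD2 rose by 3.17 ± 0.22 with paxillin siRNA and 3.30 ± 0.24 with nonspecific siRNA, and KLF15 by 1.64 ± 0.09 and 1.82 ± 0.10. SESN1, a stress-response protein, fell by 1.14 with paxillin siRNA and by 0.83 with nonspecific siRNA. The metallothioneins MT2A and MT1X fell by 2.00 and 1.71 with paxillin siRNA and by 1.84 and 1.38 with nonspecific siRNA, though near-identical family members make their counts uncertain. All 20 classical androgen-induced genes listed rose under each siRNA, with a median of 2.49 with paxillin siRNA and 2.47 with nonspecific siRNA. Both lists hold FKBP5 and were chosen with earlier results of these data known, so the 20 rises are no independent test.

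**Figure D5:**
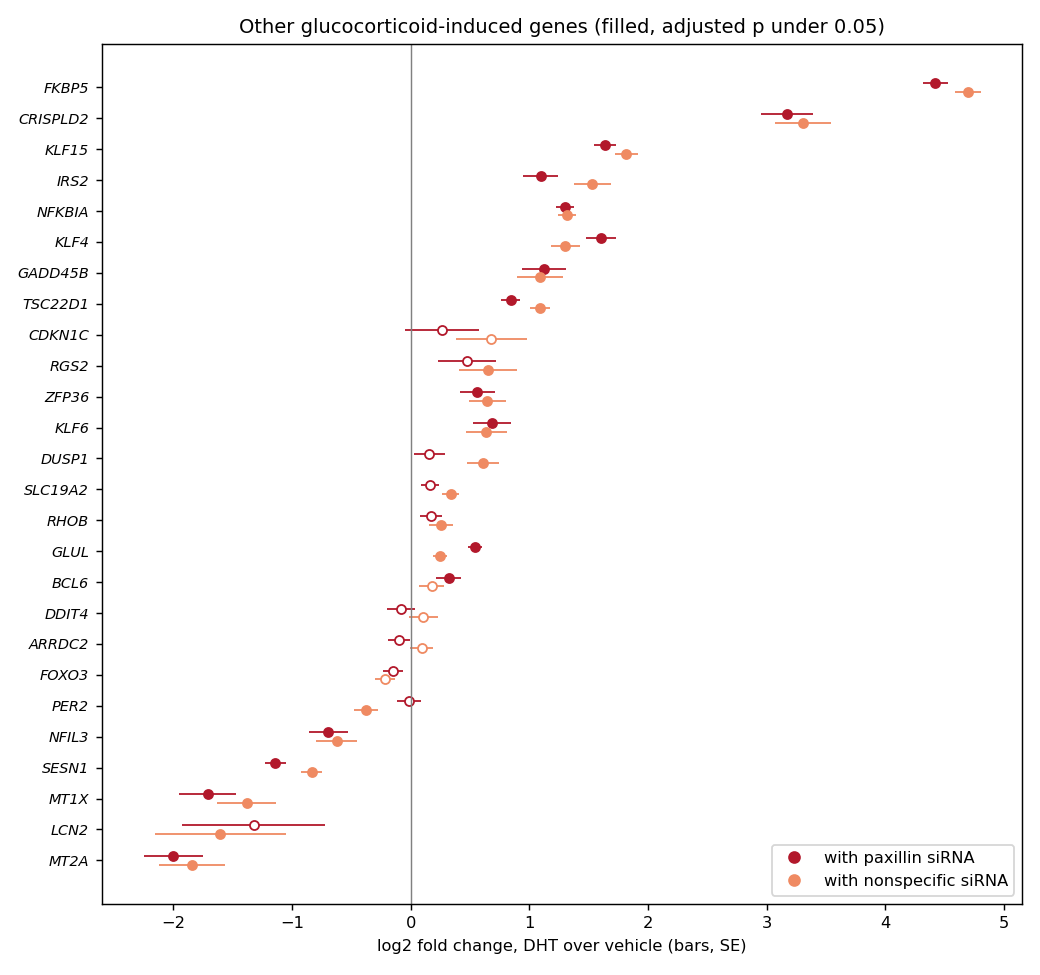
Log2 fold change of DHT over vehicle with its SE for the 26 tested genes of a further list of glucocorticoid-induced genes, in order of the response with nonspecific siRNA, with paxillin siRNA drawn above nonspecific siRNA. Filled points passed an adjusted p of 0.05. FKBP5 is at the top with 4.42 and 4.69, and MT2A at the bottom with -2.00 and -1.84.

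Called genes in the pathways of the signalling members were counted beside all genes. In DHT, 20.1% of all genes were called higher and 17.9% lower with paxillin siRNA, and 21.6% and 18.9% with nonspecific siRNA. Of 18 tested kinases, partners and substrates of the SGK1 pathway, 8 rose and 4 fell in DHT with paxillin siRNA and 7 rose and 4 fell with nonspecific siRNA. NDRG1, whose protein is phosphorylated by SGK1, rose by 1.56 ± 0.12 with paxillin siRNA and 1.39 ± 0.12 with nonspecific siRNA, and the kinase MTOR by 0.86 ± 0.06 and 1.02 ± 0.06. NEDD4, a ubiquitin ligase related to NEDD4L, fell by 0.71 with paxillin siRNA and by 0.98 with nonspecific siRNA. Larger falls were seen in the sodium channel genes SCNN1B (4.11 with paxillin siRNA and 2.90 with nonspecific siRNA) and SCNN1G (1.49 and 1.16). Both genes were low, at 1.13 and 2.99 CPM in vehicle with nonspecific siRNA. Of 9 tested receptors, ligands and inhibitors of the epidermal growth factor receptor family, 2 rose and 3 fell under each siRNA. EGFR, a receptor that the protein of ERRFI1 inhibits, rose by 0.71 ± 0.08 with paxillin siRNA and 0.90 ± 0.08 with nonspecific siRNA, and LRIG1, another inhibitor of it, by 1.29 ± 0.07 and 1.58 ± 0.07. The receptor ERBB2 fell by 0.59 with paxillin siRNA and by 0.63 with nonspecific siRNA, and the ligand HBEGF by 1.64 and 1.28.

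Relatives of the transcription factors were counted in the same way. Higher calls in DHT made up 20.1% of all genes with paxillin siRNA and 21.6% with nonspecific siRNA, and lower calls 17.9% and 18.9%. Of 9 tested genes of the MAF family and its dimer partners, 6 rose and 0 fell under each siRNA, with MAFF at 0.96 ± 0.16 with paxillin siRNA and 1.03 ± 0.16 with nonspecific siRNA. With upper-quartile scaling, or at an adjusted p under 0.01, 3 rose in the nonspecific arm. In the KLF and SP family 16 genes were tested, of which 9 rose and 3 fell with paxillin siRNA and 8 rose and 2 fell with nonspecific siRNA, or 4 fell without replicate 1 of nonspecific siRNA in vehicle. With paxillin siRNA, 8 rose and 1 fell at an adjusted p under 0.01. KLF5 rose by 2.46 ± 0.21 with paxillin siRNA and 2.81 ± 0.20 with nonspecific siRNA, and KLF4 by 1.61 ± 0.13 and 1.30 ± 0.12, while KLF9 stood near 0 as described. KLF5 was also lower with paxillin siRNA in DHT, at 10.3 CPM with paxillin siRNA and 22.1 CPM with nonspecific siRNA (-1.09 ± 0.17, adjusted p = 0.000366). In vehicle it was lower too (-0.74 ± 0.24, adjusted p = 0.0357). KLF4 was lower in DHT (-0.83 ± 0.11, adjusted p = 0.000163) and in vehicle (-1.13 ± 0.13, adjusted p = 2.76e-05). Of the 16, 6 were called lower and 1 higher with paxillin siRNA in DHT, against 7.00% and 6.34% of all genes. In vehicle 5 were lower and 1 higher, against 9.78% and 10.7%. Over the alternatives 3 to 8 were lower in DHT and 2 to 6 in vehicle.

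The next lists also stand beside 20.1% of all genes called higher in DHT and 17.9% lower with paxillin siRNA, and 21.6% and 18.9% with nonspecific siRNA. Of 8 corepressors that PLZF recruits, 3 rose with paxillin siRNA and 1 with nonspecific siRNA. The first count is 1 with upper-quartile scaling, without the filter on low counts or at an adjusted p under 0.01. It is also 1 without replicate 1, 2 or 3 of paxillin siRNA in vehicle or replicate 2 of paxillin siRNA in DHT. With nonspecific siRNA 2 fell with upper-quartile scaling and 1 without replicate 2 of nonspecific siRNA in vehicle. SIN3A rose in each arm, by 0.29 ± 0.06 with paxillin siRNA and 0.24 ± 0.06 with nonspecific siRNA. In the CEBP family 5 genes were tested, and DDIT3 alone fell in both arms, by 0.52 with paxillin siRNA and by 0.57 with nonspecific siRNA, with 0 rising. With paxillin siRNA 3 fell with upper-quartile scaling, and 2 with the replicate block or without replicate 3 of paxillin siRNA in vehicle. TSC22D1, a paralog of TSC22D3, rose by 0.84 ± 0.08 with paxillin siRNA and 1.09 ± 0.08 with nonspecific siRNA. Of 22 clock genes, 3 rose and 6 fell with paxillin siRNA and 2 rose and 7 fell with nonspecific siRNA, or 1 and 8 there without replicate 1 of nonspecific siRNA in vehicle. At an adjusted p under 0.01, 1 rose and 5 fell with nonspecific siRNA. PER3, a paralog of PER1, fell by 0.37 with paxillin siRNA and by 0.78 with nonspecific siRNA, opposite to PER1.

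Across the 12 libraries, which fall into a DHT and a vehicle cluster, the 8 genes followed each other to different degrees. As a description with no test, the correlation of log2 CPM was 0.99 between SGK1 and MAF, 0.57 between SGK1 and TSC22D3, and -0.49 between SGK1 and KLF9. The genes closest to SGK1 were SAT1, SLC45A3 and PAK1IP1 (r of 0.997 to 0.998), and those closest to MAF were LRIG1, C1orf21 and ZNF385B (r of 0.994 to 0.996). ERRFI1 lay closest to DYNLL2, CDYL2 and C1orf21, ZBTB16 to GTF2E2, LONRF1 and CD2AP, PER1 to SLC26A3, CENPN and MPC2, and CEBPD to RABEP2, HES4 and FRAT2. TSC22D3 lay closest to SCHLAP1 (r = 0.95), ZFAND1 and ZNF341, and KLF9 to KIF18A (r = 0.87), UBR1 and ZNF280D. These points share the hormone contrast, so the values mostly restate which genes differ between DHT and vehicle.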

How the data were processed

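Per the labels' protocols, mRNA libraries were made with a stranded TruSeq kit. The authors deposited 1 table of raw, unscaled counts, whole numbers for 56269 gene symbols in 12 libraries. Tools named in the submitters' processing notes are Trimmomatic 0.36, STAR 2.5.2b and featureCounts of Subread 1.5.0p3, with build GRCh38. Which annotation release and strand setting the counting used is not given in the sources used here, and overlapping genes are therefore uncertain. Nothing in the labels says whether replicates came from separate cultures. The p-values then reflect only how these libraries vary, which may be technical.

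The tests used edgeR 4.0.16 (R 4.3.3). The filterByExpr filter (minimum count 10, minimum total 15) kept 16115 genes. TMM gave the scaling, all 12 libraries entered one quasi-likelihood fit with a mean for each of the 4 groups, and p-values were adjusted by Benjamini-Hochberg over all genes tested. The SE was derived from the F statistic, and intervals are 95% intervals. Levels per exon length used GENCODE 29. The members and lists were chosen with earlier results of these data known. The named genes were the 8 members, NR3C1 and PXN, then, per list, up to 3 rising and 3 falling called genes by size of change in a DHT comparison and 2 each way in an siRNA comparison (1 CPM or more on average in some group), some of which are not reported here, and the 3 genes most correlated with each member (5 CPM or more). HSD11B1, and the values of NR3C2 and PER3 in comparisons where the rule did not name them, were chosen after their values were seen.

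Replicate numbers in the labels pair the groups: over 10701 genes, deviations from the group means correlated in all 18 same-numbered pairs of libraries (0.14 to 0.48, median 0.27). The median was -0.11 in 36 other pairs. That value is no separate baseline, since the deviations within a group of 3 libraries sum to 0. Because same-numbered libraries correlated, values with the block are given where they change a call. On simulated counts over 15713 genes, the DHT comparison with nonspecific siRNA recovered 98% of 50 genes changed 2-fold and 42% of 50 changed 1.25-fold. The changed genes had a mean count of at least 50. Counts were drawn from the dispersion trend, with no spread particular to a gene and no replicate effect. These rates therefore do not hold for genes with fewer counts or a wider spread. The alternatives tried were scaling by RLE or by upper quartile, testing without the filter, DESeq2 1.42.0, limma-voom (limma 3.58.1), the block, only the groups compared, an adjusted p under 0.01 and leaving out each library. Promoter windows came from RefSeq, with up to 3 mismatches and the TATAAA box added after seeing the data.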

Additional observations from a re-analysis of the deposited data

Results flagged for a closer look

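In the observed values, MAF was higher with paxillin siRNA than with nonspecific siRNA in 3 of 3 replicate pairs in vehicle, and lower in 3 of 3 pairs in DHT. MAF was picked from the 8 genes for this pattern, and how many of all genes show it was not counted. In edgeR's quasi-likelihood test the interaction was -0.68 on the log2 scale and did not pass the correction (adjusted p = 0.503), and in the same fit neither siRNA difference passed on its own (-0.20 in DHT, adjusted p = 0.435, and 0.48 in vehicle, adjusted p = 0.171). Without the filter on low counts the vehicle difference passed (0.50, adjusted p = 0.00483), as did the interaction (-0.68, adjusted p = 0.0120). The SE in that fit was 0.14 for the vehicle difference and 0.16 for the interaction, smaller than with the filter. With the replicate block, 0 of the 8 genes were called for the interaction. The vehicle libraries held 120, 141 and 172 MAF counts with paxillin siRNA and 39, 108 and 90 with nonspecific siRNA.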

How the results depend on the processing

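The 6 genes called higher in DHT kept their direction and call under each siRNA in all alternatives run. At an adjusted p under 0.01, 1651 genes passed for paxillin siRNA in vehicle, 954 in DHT and 0 for the interaction, with 0 of the 8 genes higher in either siRNA comparison. With upper-quartile scaling 1 of the 8 was lower in DHT with nonspecific siRNA and 1 lower with paxillin siRNA in DHT, and the interaction of ERRFI1 was -0.0024 (main value 0.0106). Without the filter, 3 of the 8 (CEBPD, SGK1 and MAF) were higher with paxillin siRNA in vehicle, 2 (TSC22D3 and ZBTB16) lower in DHT and 1 (MAF) lower in the interaction, where 142 genes passed, and SGK1 in DHT was 0.0047 (0.0037 with limma-voom, main value -0.0070). In that fit the SE of TSC22D3 for paxillin siRNA in DHT fell to 0.07, though its counts lie far above the filter. With DESeq2 2 (CEBPD and SGK1) were higher in vehicle, 1 (ZBTB16) was lower in DHT and 54 genes passed the interaction, against 0 with limma-voom. With the replicate block, 2 of the 8 were higher and 2 lower in vehicle, 2 lower in DHT, 97 genes passed the interaction and 3486 the comparison of siRNAs in DHT. The block changed no other call of the 8 genes except those of TSC22D3, ZBTB16 and SGK1 given above.

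With 1 library left out in turn, the genes called numbered 5139 to 6363 for DHT with paxillin siRNA, 5503 to 6714 with nonspecific siRNA, 1178 to 2417 for paxillin siRNA in DHT, 1848 to 3524 in vehicle and 0 to 26 for the interaction. The lowest counts came without replicate 3 of paxillin siRNA in DHT (1178) and in vehicle (1848), and counts also fell by over 1.5 times without replicate 2 of nonspecific siRNA in vehicle (1966), replicate 2 of nonspecific siRNA in DHT (1269) and replicate 2 of paxillin siRNA in DHT (1386). Of the 8 genes, 6 to 7 were higher in DHT under each siRNA, 0 to 1 were higher and 0 to 1 lower with paxillin siRNA in DHT, and 0 to 2 higher in vehicle. Signs changed among differences that never passed: the interaction of TSC22D3 (-0.25 to 0.18), ERRFI1 (-0.10 to 0.24), ZBTB16 (-0.16 to 0.080) and PER1 (-0.061 to 0.058), paxillin siRNA in DHT for SGK1 (-0.11 to 0.13), ERRFI1 (-0.20 to 0.14) and PER1 (-0.084 to 0.019), PER1 in vehicle (-0.087 to 0.032), and KLF9 in DHT with paxillin siRNA (-0.038 to 0.0076). The cause of these changes was not tested. Depth limits SGK1, MAF and CEBPD in vehicle, where a library held as few as 8, 39 and 34 counts.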
